A study of Mus musculus with 5 samples.

Results

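Spp1 encodes osteopontin, and it is described here as 1 gene among the 28692 gene identifiers of the droplet libraries and the 51912 of the plate-based table. It was chosen by its symbol, and it was proposed with its pattern in these data already known, so its levels are given as a description without tests. The material was kidney from C57/BL6 mice of 8 weeks, with 3 mice pooled into each library, and the question was how unilateral ureteral obstruction (UUO, tying off the ureter of one kidney) and its release change kidney cells. The 4 droplet libraries were a sham-operated kidney (day 0), a kidney after 2 days of UUO, a kidney after 7 days of UUO, and a kidney 7 days after the obstruction was reversed (experimental day 14). A further sample held 768 Smart-seq2 wells on 8 plates of 96 wells, with all time points together and no label that says which well is which. No genotype or transgene was given for any of them, and 1 library per time point leaves no replicate of any comparison, so no p-value is printed and every interval covers counting error only.

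Osteopontin is a secreted, heavily phosphorylated acidic glycoprotein of a family that also holds bone sialoprotein and the dentin matrix proteins. It carries an RGD motif that integrins bind and it also binds CD44. In the kidney it is known as a product of the loop of Henle and distal nephron that enters the urine and slows crystal growth, as a gene that injured tubules switch on, and as a cytokine made by activated macrophages and by matrix-forming cells.

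In the files the gene is ENSMUSG00000029304. In GENCODE M21 it lies on the plus strand of chr5:104435118-104441050 (GRCm38) and is protein-coding, with 7 annotated transcripts, and the one numbered first has 7 exons and 1410 bases. The 250 bases before the start that RefSeq gives (chr5:104434861-104435110, GRCm38.p6, plus strand) are shown because every tubule class below used this gene at very different levels between libraries, with the matches to 4 searched motifs in capitals:

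Spp1 promoter: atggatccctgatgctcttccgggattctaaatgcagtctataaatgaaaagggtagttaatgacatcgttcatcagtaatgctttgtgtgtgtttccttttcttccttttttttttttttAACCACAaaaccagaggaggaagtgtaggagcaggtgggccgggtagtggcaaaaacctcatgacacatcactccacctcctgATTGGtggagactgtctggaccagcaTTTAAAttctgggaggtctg

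Both strands were searched and the matches do not overlap. The RUNX-type letters AACCACA began 129 bases before the start, and 4.41% of the 32544 RefSeq promoter windows of 250 bases hold them. The reverse complement of the letters CCAAT began 46 bases before the start (33.8% of windows), and the TATA-like letters TTTAAA began 20 bases before it (12.0% of windows). The AP-1 type letters TGACTCA were not in this window and are in 4.46% of all. A match is a description of the letters, not of a bound site.

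The droplet libraries held between 2739 and 5938 cells and between 18649637 and 30462683 UMIs (unique molecular identifiers, each counting 1 captured RNA molecule). After cells with fewer than 200 genes or over 50% mitochondrial UMIs were left out, 3933 sham, 2207 day 2, 4447 day 7 and 3236 reversed cells remained, and their median depth lay between 2709 and 6590 UMIs. Over all kept cells, the sham library stood apart in its mitochondrial share, with a median of 33.7% against 2.98% to 9.80% in the others. Any 2 libraries shared between 16 and 39 cell barcodes. Cells were put into classes by marker genes, and 6.66% to 7.85% of kept cells stayed mixed or unassigned. In the classes of at least 30 cells all markers were detected, except 1 of 10 in the sham epithelium without segment markers.

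Over all barcodes, Spp1 made up 0.0898% of UMIs in sham, 2.56% on day 2 of UUO, 0.830% on day 7 and 0.448% after reversal. The tubule held most of it in each library: 93.8%, 89.9%, 78.7% and 67.7% of the Spp1 UMIs of kept cells in the order sham, day 2, day 7 and reversed. After obstruction the tubule classes that carried most of it were not the ones with most cells. On day 2 the thick ascending limb (TAL, the salt-absorbing segment after the loop's turn) held 33.1% of the Spp1 UMIs in 11.6% of cells and intercalated cells (the acid-base cells of the collecting system) held 23.0% in 5.98% of cells, while proximal tubule held 20.3% in 26.7%. Fibroblasts and mural cells together held 0.0218%, 0.0642%, 3.36% and 14.3% in the same order of libraries.

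**Figure D1:**
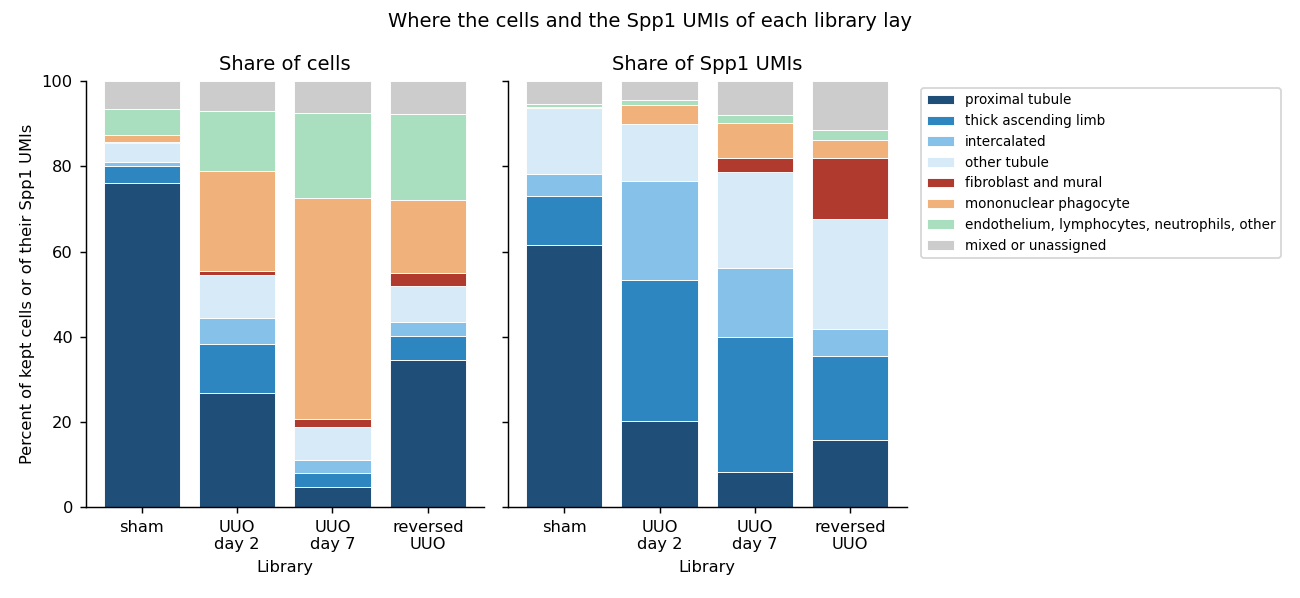
Stacked bars give, for the 4 droplet libraries on the x axis, the percent of kept cells (left) and the percent of their Spp1 UMIs (right) in each group of classes. Proximal tubule takes 61.5% of Spp1 UMIs in sham and 8.19% on day 7, and the fibroblast and mural band reaches 14.3% after reversal.

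Spp1 in the tubule was 43.3-fold higher on day 2 than in sham. Summed over all tubule cells, its level was 1089 CPM (Spp1 UMIs per 1000000 UMIs of the class, 95% Poisson interval 1071 to 1108, 3362 cells) in sham and 47214 CPM (47073 to 47356, 1203 cells) on day 2. It was 28703 CPM (28576 to 28829, 836 cells) on day 7 and 6154 CPM (6108 to 6200, 1681 cells) after reversal. The day 2 library was the highest, day 7 stayed within 1.64-fold of it, and the reversed library lay 4.66-fold below day 7 and still 5.65-fold above sham. The median mitochondrial share of the tubule cells was 34.7%, 20.8%, 11.0% and 27.1% in sham, day 2, day 7 and reversed. Its part in these differences was not tested.

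On the log2 scale of CPM plus 1, these 4 differences were 5.44 (5.41 to 5.46) for day 2 over sham, -0.72 (-0.73 to -0.71) for day 7 over day 2, -2.22 (-2.23 to -2.21) for reversed over day 7 and 2.50 (2.47 to 2.52) for reversed over sham. Among the 8286 genes tested between day 2 and sham tubule cells, Spp1 had the 10th highest log2 ratio, and among the 9067 tested between reversed and day 7 it had the 15th lowest. Day 2 over sham became 4.83 with DESeq2 size factors, 4.85 with TMM factors and 4.79 with segments weighted by their mean share over the libraries. Reversed over day 7 became -1.48 when the mitochondrial limit was 20%, and reversed over sham became 1.91 with TMM and 1.88 with DESeq2 factors.

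In sham kidney the loop and distal classes were above the proximal tubule. The thin limb of the loop was highest with 4263 CPM (3973 to 4570, 37 cells), of which 6 cells with at least 1% of their UMIs from Spp1 formed the upper end, since its median cell had 7.23 UMIs per 10000. Epithelial cells that showed pan-epithelial genes such as Epcam and Krt8 but no segment markers had 2768 CPM (2524 to 3030, 36 cells). The TAL had 2577 CPM (2452 to 2707, 151 cells) with a median cell of 21.5 per 10000, the highest median of the classes with 30 or more cells. Intercalated cells had 2091 CPM (43 cells), principal cells of the collecting duct, which take up water through aquaporins, 1907 CPM (67 cells), the distal convoluted and connecting tubule 1497 CPM (32 cells), and proximal tubule 843 CPM (825 to 861, 2996 cells). Per 1000000 non-mitochondrial UMIs, the sham TAL stood at 3928, the distal convoluted and connecting tubule at 2468 and the proximal tubule at 1280. Between the TAL and the class called without segment markers, and between intercalated and principal cells, the counting intervals overlapped. Between every pair of neighbours in this order the middle 50% of cells overlapped.

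The share of cells with a UMI gave the same picture when set against endothelial cells. After each cell was thinned to 1000 UMIs, 86.1% of sham TAL cells and 45.7% of proximal cells had one, against 9.13% of endothelial cells; unthinned, these shares were 98.0%, 68.3% and 26.0% at median depths of 3957, 2742 and 2357 UMIs. No cell of these classes was shallower than 1000 UMIs.

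Within the sham proximal tubule, Spp1 followed the early segment. Cells whose S1 markers (Slc5a2, Slc5a12, Slc7a7, Slc6a19, transporters of the first convolution) scored highest had 1041 CPM (1018 to 1065, 2095 cells). Cells whose S3 markers (Slc7a13, Cyp7b1, Atp11a, Slc22a7, of the straight end) scored highest had 151 CPM (134 to 170, 577 cells), near the 110 CPM (84.0 to 142) of sham endothelium. The S1 cells were thus 6.89-fold higher at median depths of 3014 and 2623 UMIs.

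On day 2 the pair of segments lay together: S1 cells had 29459 CPM (444 cells) and S3 cells 29888 CPM (79 cells), a log2 difference of -0.02 (-0.05 to 0.00). On day 7 the levels were 20509 CPM (92 cells) and 8798 CPM (102 cells), 2.33-fold apart, and after reversal S1 was 1.33-fold below S3, at 2338 CPM (847 cells) against 3119 CPM (219 cells). The reversed S3 sum lay in its upper cells, as its median cell had 4.67 per 10000 against 14.7 in S1 cells.

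**Figure D2:**
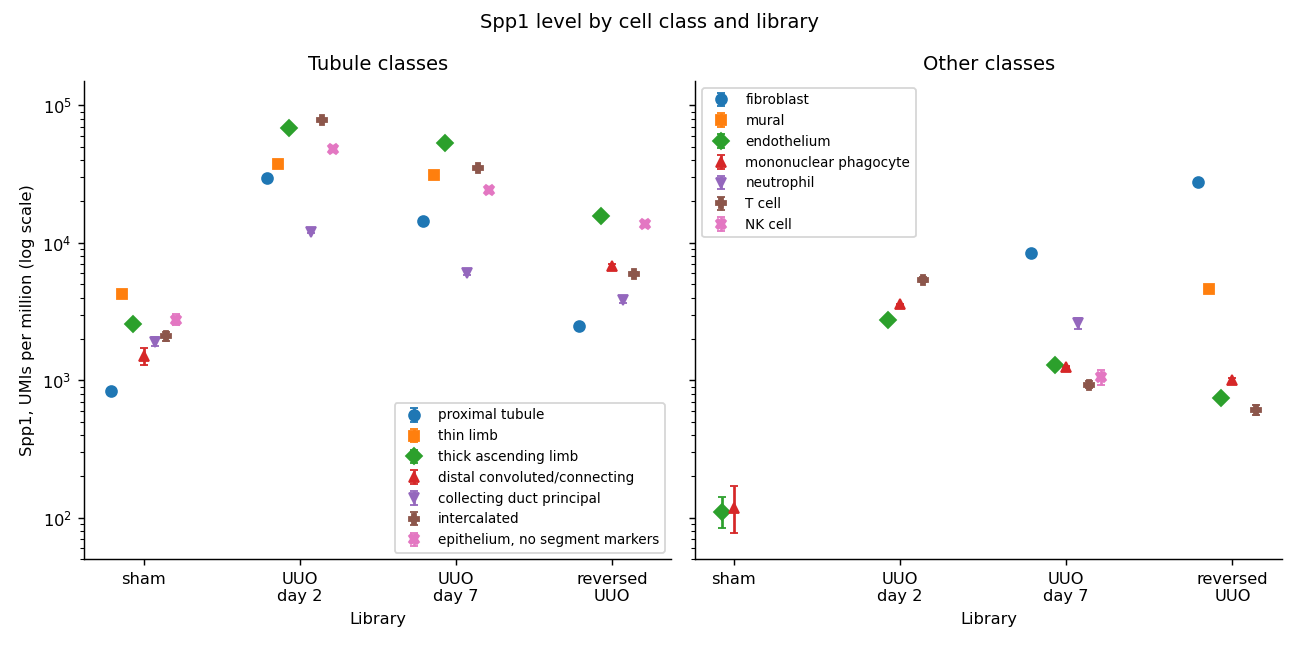
Points give Spp1 in CPM on a log axis for each class of at least 30 cells in the 4 libraries, tubule classes left and other classes right, with exact 95% Poisson intervals. Each tubule class drawn on day 2 is at its highest there, and fibroblasts are the highest of the right panel on day 7 (8426) and after reversal (27810).

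On day 2 the order of the segments was another one. By summed level, intercalated cells were at the top with 78072 CPM (77609 to 78537, 132 cells), 37.3-fold above sham, and a median cell of 570 per 10000. The TAL followed with 68507 CPM (68168 to 68847, 256 cells), 26.6-fold above sham, and 98.8% of its cells had at least 1% of their UMIs from Spp1. The order of these classes turned under other measures. The median TAL cell, at 597 per 10000, lay above the median intercalated cell. With the mitochondrial limit at 20% the TAL had 79903 CPM (120 cells) and intercalated cells 77624 CPM (99 cells). Proximal tubule, at 29414 CPM (590 cells), was 34.9-fold above sham, and the thin limb, at 37134 CPM (67 cells), 8.71-fold. The sham thin limb sum rested on few cells, as 6 of 37 held 80.5% of its Spp1 UMIs. The median thin limb cell had 7.23 per 10000 in sham and 294 on day 2.

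Principal cells were the lowest tubule class on day 2, with 12051 CPM (11811 to 12295, 77 cells), 6.32-fold above sham. With the mitochondrial limit at 20% the fold was 14.9 (50 and 19 cells). Intercalated and principal cells lie side by side in the same ducts and were at 2091 and 1907 CPM in sham, or at 1511 (9 cells) and 795 CPM (19 cells) with the limit at 20%. The 9 cells of the distal convoluted and connecting class had 47183 CPM, too few for a ratio here.

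On day 2 the intercalated level was higher in type B than in type A cells, though some of the 132 cells fell in neither group. Cells with Slc26a4 or Slc4a9 (the type B chloride-bicarbonate exchanger pendrin and its basolateral partner) and neither type A gene had 98696 CPM (63 cells) on day 2. Cells with Slc4a1 or Aqp6 only (type A) had 36948 CPM (18 cells), so type B was 2.67-fold higher. In sham type B had 2403 CPM (24 cells) and type A 134 CPM (4 cells with 2 Spp1 UMIs in all). On day 7 they had 34239 (55 cells) and 26794 CPM (38 cells). After reversal they had 6223 (46 cells) and 5833 CPM (18 cells), a log2 difference of 0.09 whose interval (-0.02 to 0.21) held 0.

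On day 7 the TAL was the highest class with 52735 CPM (52370 to 53102, 150 cells), 1.30-fold below day 2. Intercalated cells, at 34919 CPM (127 cells), were 2.24-fold below day 2, proximal tubule, at 14406 CPM (212 cells), 2.04-fold, principal cells, at 6026 CPM (96 cells), 2.00-fold, and the thin limb, at 31057 CPM (34 cells), 1.20-fold. The loop segments thus stayed nearest to their day 2 levels; whether the segments differ in this was not tested, for lack of replicates.

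After reversal the TAL still had 15702 CPM (15484 to 15922, 185 cells), 6.09-fold above sham. Proximal tubule had 2473 CPM (2434 to 2512, 1115 cells), 2.93-fold above sham, intercalated cells 5948 CPM (105 cells), 2.84-fold, and principal cells 3822 CPM (49 cells), 2.00-fold. The distal convoluted and connecting class had 6796 CPM (48 cells), 4.54-fold. The epithelial class called without segment markers had 13652 CPM (153 cells), 4.93-fold above sham. With the mitochondrial limit at 20% the folds over sham were 6.45 in proximal tubule (233 and 210 cells), 4.54 in intercalated cells (68 and 9 cells) and 4.08 in principal cells (27 and 19 cells). In the distal convoluted and connecting class it was 13.6, from 8 reversed cells and 1 sham cell.

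The reversed tubule was a mixture of low and high cells. The median tubule cell had 16.8 per 10000 against 6.38 in sham, while 215 of 1681 cells (12.8%) had at least 1% of their UMIs from Spp1 against 9 of 3362 (0.268%) in sham. The mitochondrial share of the cells moved with this: reversed tubule cells at or under 20% mitochondrial UMIs had 11219 CPM (581 cells) and those over 20% had 2266 CPM (1100 cells). In the TAL the same values were 23867 CPM (97 cells) and 4684 CPM (88 cells), and the part of the mitochondrial share in the results was not tested. With the limit at 20%, reversed proximal tubule stood at 4601 CPM in place of 2473 (sham at 713 in place of 843), although its median cell had 9.13 per 10000 at or under the limit and 12.4 above it. The reversed distal convoluted and connecting class stood at 20587 CPM (8 cells) in place of 6796.

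Cells with a UMI of Havcr1 (Kim-1, a phagocytic receptor of injured proximal cells) or Krt20 (a keratin of damaged tubules) had a higher summed Spp1 level than the rest in the 3 later libraries. On day 2 such tubule cells had 55841 CPM (205 cells) against 45112 CPM (998 cells) in the rest, 1.24-fold. On day 7 they had 37182 CPM (163 cells) against 25782 CPM (673 cells), 1.44-fold, and after reversal 27555 CPM (42 cells) against 5381 CPM (1639 cells), 5.12-fold. In sham only 4 cells had such a UMI, at 412 CPM against 1091 CPM in the others. Most cells with at least 1% of their UMIs from Spp1 had neither gene's UMI: 809 of 999 on day 2, 358 of 486 on day 7 and 188 of 215 after reversal. So had most tubule cells of any Spp1 level: 998 of 1203, 673 of 836 and 1639 of 1681 in the same order.

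Within the proximal tubule the same ratio was 1.79-fold on day 2, 3.35-fold on day 7 and 7.55-fold after reversal, when 21 cells had 15604 CPM and 1094 cells had 2067 CPM. Within the TAL it was 1.46-, 1.77- and 5.06-fold, from 29, 27 and 8 cells with such a UMI against 227, 123 and 177 without. A single UMI is found more often in a deeper cell: the reversed tubule cells with one had a median of 8134 UMIs and the others 5227. Only 4 sham tubule cells had such a UMI, and they had 412 CPM.

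The other injury genes of the list were higher in the tubule on day 2 than in sham, as Spp1 was. Between these libraries 10 of the 10 that could be tested (at least 10 CPM in the higher library, of 12 in the list) were at least 2-fold higher, against 19.3% of all genes tested (5.04% were lower), and their median log2 ratio was 4.14 against 0.48 over all genes. Taking sham, day 2, day 7 and reversed in turn, Lcn2, the iron-siderophore carrier NGAL, was at 4.0, 1764, 1298 and 301 CPM. Clu, the secreted chaperone clusterin, was at 56.5, 5493, 4207 and 1142 CPM.

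Between day 7 and day 2, 4 of 11 tested genes (Vcam1, Cd44, Pdgfb and Ccl2) were at least 2-fold higher, against 5.51% of all genes, and none was lower, against 1.1%. The other 7 were not called, and neither was Spp1 itself, whose log2 ratio was -0.72. Vcam1, an adhesion molecule for leukocytes, went from 22.2 to 137 CPM between these libraries. In mononuclear phagocytes (macrophages, monocytes and dendritic cells) Ccl2 was at 695 and 250 CPM on day 2 and day 7, and Cd44 at 149 and 96.4 CPM. Both lay above their tubule levels. On day 7 Vcam1 (58.2 CPM) and Pdgfb (27.7 CPM) in phagocytes lay below theirs (137 and 31.1 CPM). The part of leukocyte RNA in the tubule levels of these genes was not tested. Between reversed and day 7, 10 of 11 were at least 2-fold lower, against 4.53% of all genes, with a median log2 ratio of -1.58 against -0.30, and none was higher, against 4.26%. The exception was Il34, a ligand of the macrophage growth factor receptor, at 38.2 and 19.2 CPM. Between reversed and sham 10 of 10 were higher, against 17.6%, and none was lower, against 0.473%. With TMM factors, chosen after seeing the data, 9 of 10 were called between day 2 and sham, 3 of 11 between day 7 and day 2, 8 of 11 between reversed and day 7 and 9 of 10 between reversed and sham, and Pdgfb was called in none of them. All shares of genes tested, here and for the lists below, are without TMM factors. No share with them is given, so the TMM counts have none to be set against.

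Of the 11 osteopontin receptor genes of the list, 5 or 6 reached 10 CPM in the tubule. Itgav and Itgb1, the alpha v and beta 1 integrin chains, were 2 of 5 tested that were at least 2-fold higher on day 2 than in sham, at 229 against 62.8 CPM and 127 against 57.5 CPM, Itgb1 only without TMM factors. The share of all genes higher in that comparison was 19.3%. Between reversed and sham 1 of 5 (Itgb1, not with TMM factors) was higher, against 17.6%. Cd44, the hyaluronan receptor that also binds osteopontin, was at 0.4, 9.9, 28.8 and 9.7 CPM in the order of the libraries, and it was the 1 of 6 tested that was at least 2-fold higher on day 7 than on day 2, against 5.51% of all genes, and the 1 of 6 that was lower after reversal than on day 7, against 4.53%. Itgb8 and Itgb6, beta chains that pair with alpha v, were tested and not called between day 2 and sham (62.4 to 49.8 CPM and 64.8 to 97.9 CPM). Cd44 was higher in phagocytes than in tubule cells in each library, and the part of leukocyte RNA in its tubule level was not tested.

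Of the enzymes that act on the protein, 3 of 7 could be tested in tubule cells. Mmp7 (matrilysin, which cleaves osteopontin) was the 1 of 3 called higher on day 2 than in sham, against 19.3% of all genes, and after reversal than in sham, against 17.6%, with no UMI in sham and 23.0, 42.0 and 13.8 CPM in the later libraries. It was also the 1 of 3 called lower after reversal than on day 7, against 4.53%. Fam20c, the secretory-pathway kinase that phosphorylates osteopontin, stayed between 29.7 and 37.8 CPM in all 4 libraries, and Tgm2, the transglutaminase that cross-links osteopontin, between 60.1 and 79.5 CPM. The family's other genes Ibsp, Dmp1, Dspp and Mepe, which sit mostly in bone and tooth, were not tested in tubule cells because none reached 10 CPM.

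Among other secreted proteins of the tubule, Umod (uromodulin, made by the TAL) was at 1083, 3617, 2550 and 1839 CPM in the 4 libraries in order, and Egf, the growth factor of the distal nephron, went the other way with 759, 154, 107 and 611 CPM. Of the 7 secreted or matricellular genes tested between day 2 and sham, 6 were higher, against 19.3% of all genes, and Egf was lower, against 5.04%. With TMM factors 5 of the 7 were higher, without Sparc. Between day 7 and day 2, 3 of 8 were higher (1 with TMM factors), against 5.51%, and none was lower, against 1.1%. Between reversed and day 7, 3 of 8 were lower (1 with TMM factors), against 4.53%, and 1 (Egf) was higher, against 4.26%. Between reversed and sham 5 of 8 were higher, against 17.6%, and none was lower, against 0.473%. Without TMM factors, the 3 called higher on day 7 than on day 2 were Mgp, Sparc and Fn1. After reversal they were at 104, 97.2 and 19.1 CPM in tubule cells and at 20878, 4444 and 842 CPM in fibroblasts. The part of stromal RNA in their tubule levels was not tested. Umod is also a TAL gate gene, and the part of TAL cell numbers in its level was not tested.

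Outside the tubule, Spp1 UMIs had to be set against free RNA, which leaks from broken cells into every droplet. The free-RNA level was estimated from 13 tubule genes that are not gate markers, 7 of the proximal tubule (among them Kap, Miox, Pck1, Ttc36, Calml4 and Keg1) and 6 of the distal nephron (Fxyd2, Egf, Wfdc15b, Defb1, Ppp1r1a, Sostdc1). The share of the library's tracer level found in a class, times the library's Spp1 level, gave the Spp1 expected from free RNA in that class. The tracers themselves differed between libraries. In tubule cells all 7 proximal ones were at least 2-fold lower on day 2 than in sham, against 5.04% of all genes tested. Of the 6 distal ones Defb1 and Sostdc1 were higher, against 19.3%, and Egf was lower. The part of these differences in the expectation was not tested.

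Endothelial cells, which line the vessels, were below or close to that expectation in each library when all barcodes of the library set the tracer and Spp1 levels. In the order of the libraries they had 110 CPM (208 cells), 2752 CPM (138 cells), 1290 CPM (449 cells) and 738 CPM (345 cells). Observed over expected was 0.62 (0.47 to 0.79), 0.68 (0.65 to 0.71) and 0.64 (0.62 to 0.67) in the first 3 and 0.96 after reversal, where the interval held 1. On day 2 a single cell at 73969 CPM, with 4614 CPM of distal tracers, lay apart, and the other 137 had 1996 CPM. The level of all 138 was 24.9-fold higher on day 2 than in sham, and the Spp1 level of the whole library was 898 CPM in sham and 25552 CPM on day 2; the part of free RNA in the difference was not tested. With the expectation taken from barcodes that failed the filters (57 on day 7), an alternative added after seeing the data, endothelium stood at 0.63, 0.74, 1.98 and 3.31 times it in the order of the libraries, so on day 7 and after reversal its side of the expectation rests on that choice. With cells kept that carried markers of 2 compartments, day 7 endothelium stood at 2293 CPM.

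T cells had 5383 (103 cells), 930 (299 cells) and 611 CPM (254 cells) from day 2 onward, with observed over expected at 1.31, 0.64 and 0.76. The day 2 value rested on 2 cells at 63453 CPM that also held 4777 CPM of distal tracers; the other T cells had 2262 CPM of Spp1 and 441 CPM of distal tracers. B cells were at 0.85 (20 cells), 0.61 (22 cells) and 0.48 (22 cells) times the expectation in these libraries, and NK cells at 0.76 (25 cells) on day 2 and 0.37 (62 cells) on day 7. With mixed cells kept, the day 7 NK level was 1744 CPM instead of 1051 CPM. Against the failed barcodes, T cells stood at 1.96 times the expectation on day 7 and 2.62 after reversal, B cells at 1.88 and 1.65, and NK cells at 1.14 on day 7.

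**Figure D3:**
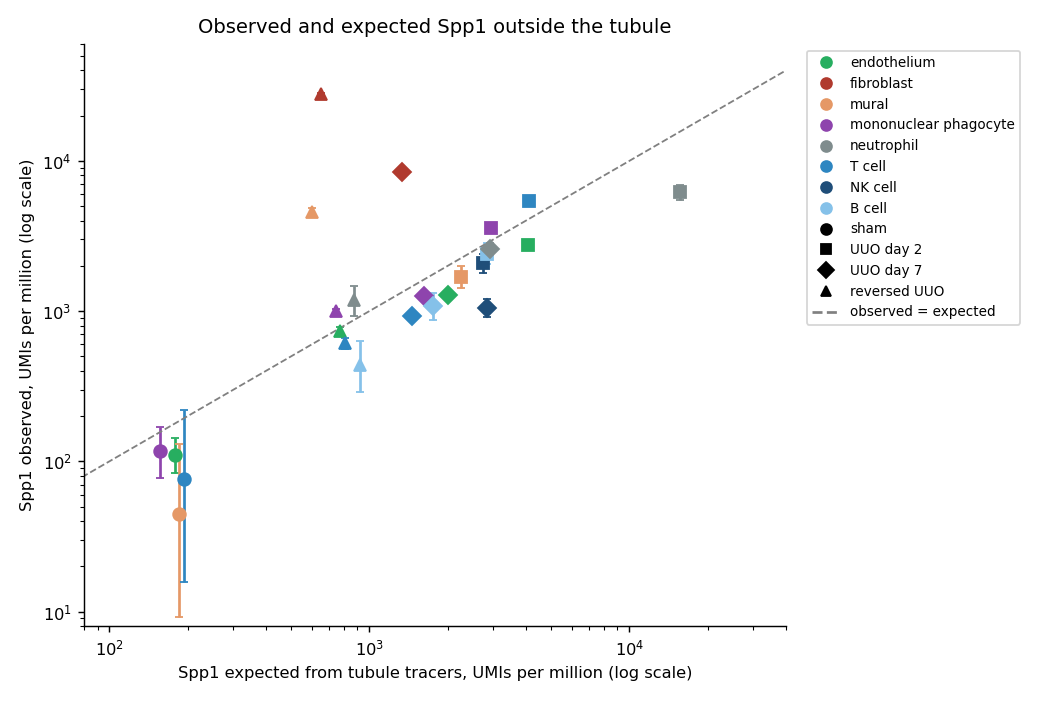
Each point is a class outside the tubule in 1 library (at least 10 cells), with the Spp1 level expected from tubule tracers on the x axis and the observed level on the y axis, both in CPM on log axes, and exact 95% Poisson intervals. Most points lie near or under the line of equality, and the fibroblasts of day 7 (6.29 times the expectation) and after reversal (42.7 times) lie far above it, as do the reversed mural cells (7.62 times).

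Fibroblasts, the collagen-making stromal cells, stood far above the free-RNA level as a summed class, through some of their cells. On day 7 they had 8426 CPM (8242 to 8613, 83 cells) where 1341 CPM were expected, 6.29 times (6.15 to 6.42). After reversal they had 27810 CPM (27329 to 28297, 58 cells) where 651 CPM were expected, 42.7 times (42.0 to 43.5). By summed level they were the highest of the 11 classes with at least 30 cells in that library, but not by the median cell. From day 7 to the reversed library Spp1 was 3.30-fold higher in fibroblasts, a log2 ratio of 1.72 (1.68 to 1.76), while every tubule class with enough cells in both was lower. In sham 1 fibroblast and on day 2 5 fibroblasts passed the gate, so these libraries give no fibroblast level.

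The level came from some of the fibroblasts. After reversal 26 of 58 fibroblasts (44.8%) had at least 1% of their UMIs from Spp1, and on day 7 15 of 83 (18.1%). On day 7 these 15 cells held 85.5% of the class's Spp1 UMIs, at 31071 CPM, and the 68 others had 1586 CPM, where 1341 CPM were expected for the class. The median day 7 fibroblast, at 11.4 per 10000, lay below the 13.4 expected. The reversed cells over 1% had 53570 CPM and the 32 others 2351 CPM. The median cell of the whole class had 70.7 per 10000 and the highest 1483. The reversed epithelial class called without segment markers had a higher median cell, at 80.7 per 10000 (153 cells). The fibroblasts over and under 1% carried alike tracer levels after reversal (858 and 1004 CPM proximal, 497 and 556 CPM distal) and alike depth (medians of 5386 and 5687 UMIs). The 1% limit was chosen after the cells' values had been seen, so what follows describes these cells.

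The collagen genes Col1a1, Col1a2 and Col3a1 were found in 100% of both kinds of reversed fibroblasts. Timp1, an inhibitor of matrix metalloproteinases, was at 2344 CPM in the cells over 1% and 535 CPM in the others, Serpine2, a protease inhibitor (protease nexin), at 4160 and 1134 CPM, and Tgfb1, the profibrotic cytokine, at 581 and 248 CPM. Lower in the cells over 1% were Dcn (decorin, a collagen-binding proteoglycan, 246 against 3216 CPM), Smoc2 (114 against 1113 CPM), Acta2 (smooth muscle actin, 101 against 895 CPM) and Lum (lumican), which had no UMI there and 700 CPM in the others. On day 7 Timp1 was again higher (6366 against 2249 CPM) and Dcn (1179 against 3108 CPM) and Lum (160 against 762 CPM) lower in the cells over 1%. The collagens were lower there too, Col1a1 at 3985 against 8608 CPM on day 7 and 2441 against 3990 CPM after reversal. These collagens, Dcn and Lum are markers of the fibroblast class. Another marker of the class, Pdgfra, was at 256 against 247 CPM on day 7 and 167 against 417 CPM after reversal.

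**Figure D4:**
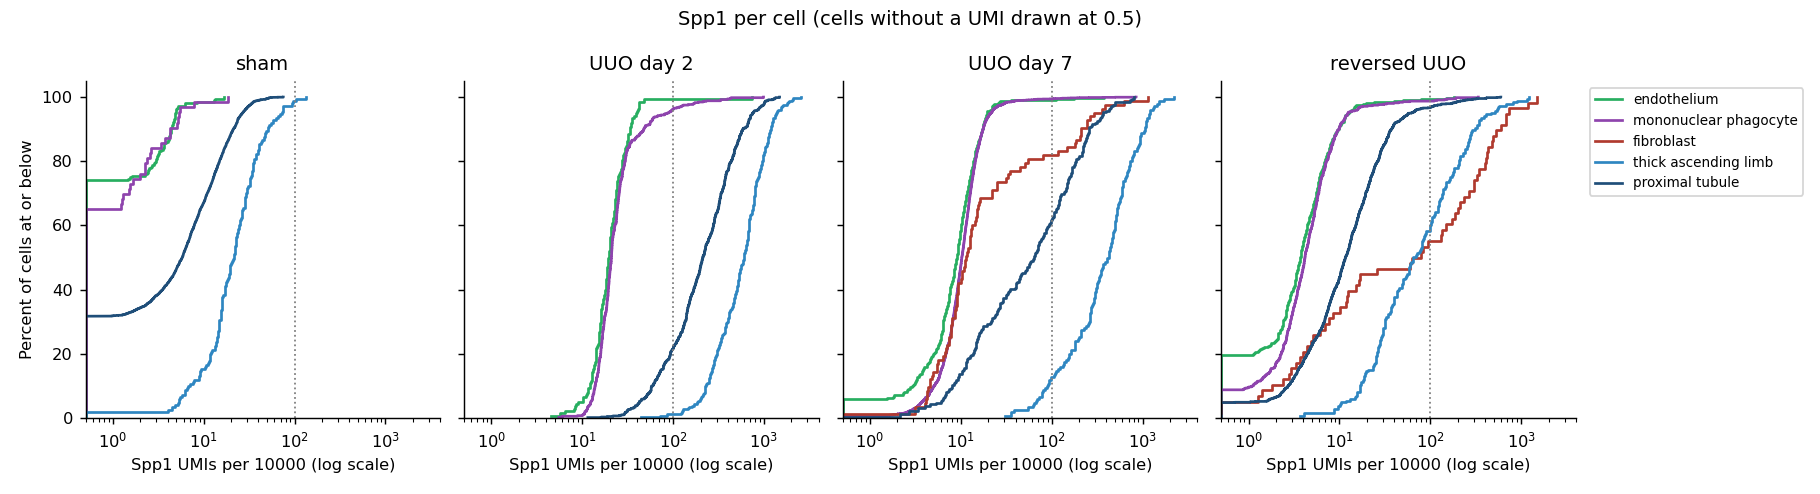
Each curve gives the percent of cells at or below a level of Spp1 UMIs per 10000 UMIs of the cell (log axis) for 5 classes in the 4 libraries, where a class had at least 30 cells; the dotted line marks 1% of UMIs. After reversal 44.8% of fibroblasts and 41.1% of TAL cells lie beyond the line, and 0.580% of endothelial cells do.

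In the same fibroblasts the osteopontin receptors Itgb3, Itgb5 and Itga5, chains of the RGD-binding integrins, were the 3 of 9 tested that were at least 2-fold higher after reversal than on day 7, against 8.3% of all genes tested, and none was lower, against 9.63%. Itgb5 was at 266 and 675 CPM on day 7 and after reversal. The other calls rested on few UMIs in the same order of libraries: Itgb3 on 6 and 13, and Itga5, at 22.3 and 45.9 CPM, on 21 and 21. Of the 11 secreted or matricellular genes, 5 (Egf, Mgp, Sparcl1, Thbs1 and Tnc) were at least 2-fold higher in these fibroblasts, against 8.3% of all genes, and 2 (Clu and Postn) lower, against 9.63%. Egf is itself a tubule tracer (4 and 14 UMIs), and the tracers were higher too, 7 of 7 proximal and 4 of 5 distal ones; their part in the list was not tested. Mgp (matrix Gla protein, an inhibitor of calcification) was at 9634 and 20878 CPM, Tnc (tenascin C) at 194 and 479 CPM, and Postn (periostin) at 352 and 48.1 CPM. Sparc, a collagen-binding matricellular protein, was at 8875 and 4444 CPM and Fn1 (fibronectin) at 1355 and 842 CPM, neither past 2-fold. Dspp (dentin sialophosphoprotein), of osteopontin's own family, had 0 UMIs on day 7 and 7 after reversal.

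Mural cells (pericytes and smooth muscle) were too few before reversal. After it 39 cells had 4590 CPM (4364 to 4824), 7.62 times the free-RNA expectation (7.25 to 8.01). The median mural cell, at 7.56 per 10000, lay near the 6.02 expected, and 2 cells over 1% held 34.8% of the Spp1 UMIs of the class. The 11 sham mural cells had 3 Spp1 UMIs in all, 0.24 times the expectation (0.05 to 0.71), and the 13 on day 2 had 0.75 times.

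Mononuclear phagocytes (macrophages, monocytes and dendritic cells) had 117 (63 cells), 3563 (521 cells), 1259 (2302 cells) and 1004 CPM (556 cells) in the order of the libraries. Observed over expected from free RNA was 0.75 (0.50 to 1.09), 1.22 (1.20 to 1.23), 0.78 (0.77 to 0.79) and 1.35 (1.31 to 1.39). The class as a whole thus lay between 0.75 and 1.35 times the level that the tracers carry. With the tracer level taken from barcodes that failed the filters, the day 7 value was 2.39 and the reversed value 4.67.

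A tail of phagocytes lay beyond that level. On day 2, 20 phagocytes had at least 1% of their UMIs from Spp1, at 28130 CPM together, and the 501 others had 2426 CPM, at median depths of 11212 and 10020 UMIs. On day 7 the 13 such cells had 20760 CPM and the 2289 others 1100 CPM, and after reversal 7 had 17756 CPM and 549 had 524 CPM. The tail cells were deeper on day 7 (medians of 8520 and 6552 UMIs) and more so after reversal (20491 and 6712 UMIs); no doublet caller was run, and the part of doublets was not tested. These groups were chosen by Spp1 itself, so the values describe how uneven the class was.

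The tail cells were mostly among those whose macrophage markers scored highest, a group that also made up much of the class. On day 2 the tail held 15 of 249 such cells, 5 of 228 monocyte-like cells and none of 44 dendritic-like cells. On day 7 it held 13 of 1865, none of 289 and none of 148, and after reversal 7 of 437, none of 73 and none of 46. The 20 day 2 cells had 296 CPM of proximal and 486 CPM of distal tracers against 179 and 448 CPM in the rest. The 13 day 7 cells carried more tracers, 1023 CPM proximal and 825 CPM distal against 271 and 245 CPM in the rest, and the part of that in their Spp1 was not tested.

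Of the 11 receptor genes, 8 reached 10 CPM in phagocytes of sham or day 2. Itgb3 and Itgb8 had no UMI in sham and at most 3.28 CPM in any later library. Cd44 was at 87.9, 149, 96.4 and 98.5 CPM in the order of the libraries, and Itgb5 at 105, 155, 124 and 161 CPM. Between day 2 and sham 0 of 8 receptors tested were at least 2-fold higher, against 15.5% of all genes, and 1 (Itga8, the alpha 8 chain, 11 UMIs on day 2 and 3 in sham) was lower per UMI, against 12.5%.

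Neutrophils had 2594 CPM (49 cells) on day 7, of which 2 cells at 24215 CPM carried 5012 CPM of distal tracers, and the 47 others had 977 CPM. Their ratio to the expectation was 0.39 (15 cells), 0.89 and 1.35 (16 cells) from day 2 to reversal, and 0.43, 2.73 and 4.66 against the failed barcodes.

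The Smart-seq2 wells gave a reading of phagocyte Spp1 in separate wells rather than droplets. Of the 768 wells, 416 had at least 50000 gene reads and 500 genes, with between 52179 and 7854119 reads. A gate with the same markers and score limits, scaled on the wells, put 331 of them in the phagocyte class. Unlike the droplet gate, it asked for no margin between classes. Spp1 had a read in 261 of those 331 (78.9%, 74.1 to 83.1%), and its level was 0 in the lowest well, 13.0 CPM (here Spp1 reads per 1000000 gene reads of the well) in the median well, 840 at the 90th percentile and 49366 in the highest. Most phagocyte wells thus had little or none, and 28 of 331 (8.46%) had at least 1000 CPM.

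High Spp1 was found in phagocyte wells with few and with more tubule reads. Of the 28, 19 had fewer than 10 reads from the 13 tracer genes together, as had 260 of all 331. At least 1000 CPM was reached by 7.31% of these 260 wells and by 9 of the 71 (12.7%) with 10 or more tracer reads, and the part of tubule RNA in those was not tested. The highest phagocyte well had 49640 Spp1 reads among 1005543, with 2502 reads of Csf1r (the macrophage growth factor receptor) and no tracer read. The next had 33008 CPM with 2 tracer reads.

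Phagocyte wells with fewer than 10 tracer reads had a median of 13.2 CPM of Spp1 (260 wells, lowest 0, highest 49366), and wells with 10 or more had 12.8 (71 wells, lowest 0, highest 8008), so the groups overlapped. Median depths were 462420 and 540704 reads. On each of the 8 plates the median phagocyte well lay between 3.02 and 289 CPM, and what the plates stand for is not given in the labels.

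Few wells of other cells were there to set beside these. The highest of all 416, with 98872 CPM of Spp1, was the 1 well in the fibroblast class, which had 6392 Col1a1 and 8880 Col3a1 reads, 12 Csf1r reads and 5 tracer reads. The fourth highest, at 15043, was in the intercalated class and had 2018 reads of Slc26a4 and 742 tracer reads. The 2 endothelial wells had 1 Spp1 read in all. These single wells have no label for time point and stand as values.

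**Figure D5:**
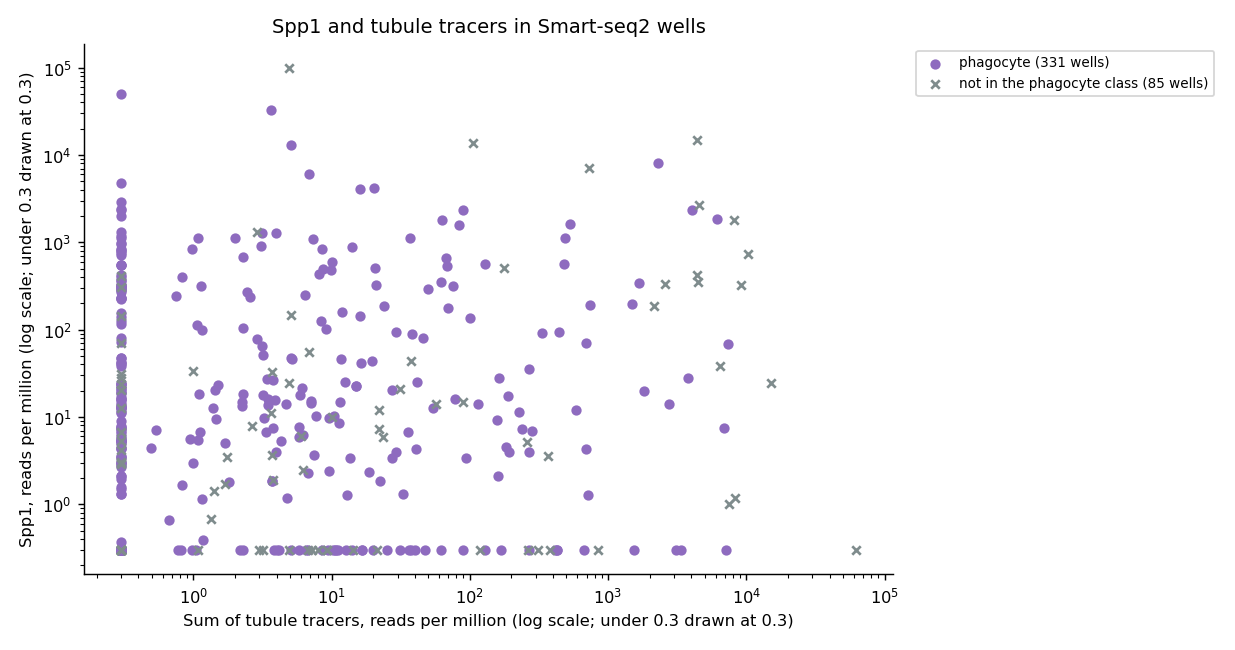
Each point is 1 of 416 Smart-seq2 wells, with the summed tubule tracers on the x axis and Spp1 on the y axis, both in CPM on log axes, values under 0.3 drawn at 0.3. The highest phagocyte wells, at 49366 and 33008, lie at or near 0 tracers, and most of the 331 phagocyte wells lie far below them.

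Over the 41 combinations of class and library with at least 30 cells, the genes whose log2 level followed Spp1 most closely by Pearson's r were Fat1 (0.78), Tnfrsf12a (0.78), 2200002D01Rik (0.77), Akr1b8 (0.76) and Cd63 (0.75), out of 7710 genes with at least 50 CPM in 1 combination and no gate role. By Spearman's rho they were Tnfrsf12a (0.83), 2200002D01Rik (0.82), Cd63 (0.80), Plpp2 (0.77) and Akr1b8 (0.76). Tnfrsf12a is the receptor of the cytokine TWEAK, Fat1 a large cadherin, Cd63 a lysosomal and exosomal tetraspanin and Akr1b8 an aldo-keto reductase. In the TAL Tnfrsf12a was at 13.0, 75.7, 74.6 and 36.4 CPM in the order of the libraries, and in reversed fibroblasts at 116 CPM. Classes of 1 library share its free RNA and depth, so these values are a description.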

How the data were processed

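As deposited, the 4 droplet libraries hold unnormalised UMI counts for each gene in each cell (kidneys digested on ice, live cells sorted by DAPI, 3′ chemistry, per the labels' protocols) and the authors deposited unnormalised read counts for each gene in each well of the Smart-seq2 sample, whose well preparation is not given in the sources used here. Cell Ranger, STAR and the builds GRCm38 and mm10 are named in the submitters' processing notes. No column of another series was present (0). Of the 51912 identifiers of the plate table, 28532 were matched to symbols through the droplet gene lists.

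Spp1 was chosen, and the gene lists and class markers were written, with earlier results of these data known. Cells needed 200 genes and at most 50% mitochondrial UMIs. A class score was the mean of its markers' scaled log levels; at least 3 markers and a score of 0.1 (epithelial) or 0.3 (other, set after marker scores had been seen) were needed, and a second compartment at 0.5 of the best score made a cell mixed. A segment needed 0.5 of the pan-epithelial score and a margin of 0.05. In plates, wells needed 50000 gene reads and 500 genes, limits set after the totals were seen. The gate for wells took the highest class score, without the margin, the pan-epithelial share or a mitochondrial limit. No doublet caller was run; mixed cells were left out. Levels are summed CPM with exact Poisson intervals, ratios are log2 of CPM plus 1 with exact conditional binomial intervals at 95%, and ratios needed 30 cells. List genes were called at 2-fold with 10 CPM in the higher library. Named genes were Spp1, the list genes and the 5 closest by each correlation. Genes compared between fibroblasts over and under 1% were named after their values were seen. They were among the 5 most different each way with at least 500 CPM, or were markers of the fibroblast class. The call and free-RNA steps were tested on simulated data. The simulated free RNA was drawn from the same pool that the estimate used, so that test cannot say whether the pool is the right one. A split of the phagocytes by 1 gene, and the alternative that rests on it, are not reported here. Alternatives covered scaling (edgeR 4.0.16 TMM, DESeq2 1.42.0 size factors), filters, gates, tracers, thinning and weighting. Software was R 4.3.3 and Python 3.11.15 with scipy 1.17.1, numpy 2.4.6, matplotlib 3.10.9 and pandas 2.3.3.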

Additional observations from a re-analysis of the deposited data

Results flagged for a closer look

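From day 7 of UUO to the reversed library, Spp1 was higher in fibroblasts (log2 ratio 1.72, 83 and 58 cells) and lower in tubule cells as a whole (log2 ratio -2.22, 836 and 1681 cells). It stands out because the 2 compartments of the same libraries lie in opposite directions. With 1 pooled library per time point the difference between the compartments was not tested.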

How the results depend on the processing

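No paired analysis was possible because each time point has 1 pooled library. In the tubule each of the 12 alternatives per comparison kept the direction, and these are the values outside the counting intervals, in the order day 2 over sham, day 7 over day 2, reversed over day 7 and reversed over sham. They were 4.85, -0.98, -1.96 and 1.91 with TMM; 4.91, -0.94, -1.99 and 1.97 with TMM over genes with 10 or more UMIs; 4.83, -1.03, -1.93 and 1.88 with DESeq2 factors; 5.16, -0.85, -2.01 and 2.30 over non-mitochondrial UMIs; 5.10, -0.77, -1.48 and 2.85 at a mitochondrial limit of 20%; 5.39, -0.84, -2.25 and 2.30 with cells weighted equally; 5.58, -0.69, -2.34 and 2.55 after free-RNA subtraction; and 4.79, -0.82, -2.001 and 1.96 with segments weighted by mean share. Thinning gave 5.38, -0.86 and 2.30 for the first 2 and the last, and keeping mixed cells -2.24 for the third. TMM shifted all genes by -0.58 for day 2 over sham and for reversed over sham (log2), and by -0.26 and 0.26 for the other 2.

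For phagocytes over the free-RNA expectation, day 2 gave 1.41 with proximal and 1.14 with distal tracers, 1.33 with the pool of failed barcodes, 1.23 at 20% mitochondrial UMIs and 1.17 with mixed cells. Day 7 gave 0.74, 0.81, 2.39 (turned) and 0.80 with mixed cells; that pool has 57 barcodes. Reversed gave 1.39, 1.28, 4.67 and 1.29. The cause was not tested. Alternatives for fibroblasts were added after seeing the data: reversed over day 7 gave 1.98 with the tubule's TMM factors, 1.59 with equal weights, 1.55 thinned and 1.80 with mixed cells, and the ratio to the expectation 148 with failed barcodes and 41.1 with mixed cells. Spp1 was at or over 1000 CPM in 35 of 41 combinations of class and library, and in 34 to 36 under 4 alternatives; of 164 recomputed class levels 10 moved by over 1.5 times. Added after seeing the data, a minimum of 10000 reads per well gave 78.0% of phagocyte wells with a read. Levels rest on few cells in the distal convoluted, thin limb, fibroblast and mural classes, and the depth of sham cells limits values near the free-RNA level.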

Other observations

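Barcodes that failed the cell filters carried Spp1 at 557 (2005 barcodes), 12669 (532), 4407 (57) and 1286 CPM (459) in the order sham, day 2, day 7, reversed. Cells with markers of 2 compartments had 359 CPM (23 cells), 27620 CPM (33 cells), 12146 CPM (147 cells) and 5491 CPM (90 cells). Podocytes, the filter cells of the glomerulus, had 646 CPM (4 cells), 5992 CPM (9 cells), 611 CPM (4 cells) and 5989 CPM (5 cells), with 1 cell over 1% of UMIs on day 2 and 2 after reversal. The 2 cells gated as urothelium, the lining of the renal pelvis, had 35992 CPM on day 2 and 16747 CPM after reversal; each lacked UMIs of at least 2 of the 6 markers.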
